A study of Homo sapiens with 16 samples.

Results

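The genes described here are the core of the Notch pathway as it was measured in A431 and HaCaT keratinocytes: the receptors NOTCH1, NOTCH2 and NOTCH3, the ligands JAG1, JAG2 and DLL1, and the transcriptional targets HES1, HEY1 and NRARP. These 9 genes were taken by symbol from the 26229 genes listed in the deposited count table, and all 9 had enough counts to be tested. RNA sequencing was performed on 16 libraries, 8 from each line, to ask which genes respond to loss or gain of the transcriptional co-activator YAP. A431 is a line from an epidermoid carcinoma and HaCaT (HaCat in the labels) is an immortalised, non-tumorigenic keratinocyte line, and both were grown in DMEM with 10% FCS. In each line 1 library was from cells given control siRNA (siCTRL) and 3 from cells given siRNA against YAP1 (siYAP), neither with an expression vector. A further library in each line was from cells with an empty vector and 3 were from cells expressing YAP5SA (YAP1 S5A in the labels), a mutant of YAP that is constitutively active. The labels gave 2 siRNA transfections 24 hours apart and RNA 48 hours after the second, for every library. Each line is 1 culture lineage, so the replicates are repeats within a line and not separate donors.

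Notch receptors sit in the cell membrane and are activated by Jagged or Delta-like ligands on a neighbouring cell. Binding exposes the receptor to cleavage by ADAM proteases and then by gamma-secretase, which frees an intracellular domain that enters the nucleus and works with the DNA-binding protein RBPJ. In the epidermis this signal is known for driving basal keratinocytes towards differentiation, with JAG1 and DLL1 as ligands and HES1 among the direct targets.

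RefSeq promoter windows of GRCh38.p14, from 250 bases before to 50 bases after the gene start, were searched for 7 of the 9 genes. Those of DLL1 and HEY1 were not searched, so nothing is said of them. The 2 printed here are of the target HES1, since it alone of the 7 held the core letters bound by RBPJ, and of the ligand JAG1, since it alone of the 9 genes passed the test with a YAP treatment. The searches, on both strands and with overlaps counted, were for the RBPJ core TGGGAA and for GGAATG, the core letters bound by the TEAD factors with which YAP works. Capitals mark TGGGAA. The HES1 window lies on the + strand at chr3:194135898-194136197 and the JAG1 window on the - strand at chr20:10673950-10674249.
HES1: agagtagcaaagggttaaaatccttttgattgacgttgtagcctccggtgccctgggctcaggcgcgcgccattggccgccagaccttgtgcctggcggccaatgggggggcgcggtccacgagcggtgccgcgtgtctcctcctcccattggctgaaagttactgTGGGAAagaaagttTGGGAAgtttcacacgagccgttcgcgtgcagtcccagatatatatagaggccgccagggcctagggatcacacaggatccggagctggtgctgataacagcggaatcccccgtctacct
JAG1: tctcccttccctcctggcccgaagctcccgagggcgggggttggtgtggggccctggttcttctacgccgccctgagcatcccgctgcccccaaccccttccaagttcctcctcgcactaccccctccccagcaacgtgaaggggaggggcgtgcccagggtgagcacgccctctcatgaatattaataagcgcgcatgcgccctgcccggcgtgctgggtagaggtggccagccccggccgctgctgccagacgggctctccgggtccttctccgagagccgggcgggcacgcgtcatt
In the HES1 window TGGGAA began at positions -84 and -70 from the gene start. At least 1 copy was in 24.3% of 27305 RefSeq promoter windows of this length, and 3.81% held 2 or more. GGAATG was in none of the 7 windows and in 14% of all windows. These matches describe letters in a window and are not evidence of binding.

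Library depth ran from 18115624 to 46791673 assigned read pairs, in which 3 counts, the limit that a count of 0 allows, corresponded to 0.063 to 0.164 CPM. Levels are in CPM, the count of a gene scaled by its library's size after TMM adjustment. YAP1 itself fell to between 5.04 and 6.99 CPM with siYAP in A431, from 94.2 CPM with siCTRL, and to between 21.6 and 23.2 CPM in HaCaT, from 254 CPM. With YAP5SA it reached 1494 to 3244 CPM in A431 against 124 CPM with empty vector, and 7546 to 22243 CPM in HaCaT against 423 CPM. Replicates of a group varied beyond counting error throughout, with a chi-square per degree of freedom of 13.6 to 26.6 for siYAP and 6.77 to 144 for YAP5SA, where 1 is expected from sampling alone. All 6 keratinocyte markers were above 1 CPM, with a summed level of 3379 to 4714 CPM in A431 and 2230 to 6386 CPM in HaCaT. Of the markers of other cells, 2 of 5 for fibroblasts, 3 of 5 for endothelium and 2 of 5 for leukocytes passed 1 CPM in some library, the defining leukocyte gene PTPRC did not exceed 0.255 CPM, and MS4A1 was at 0 throughout. The leukocyte marker CD68 was at 82.0 to 170 CPM in A431 and at 8.16 to 32.5 CPM in HaCaT. The endothelial marker CDH5 varied with treatment: in HaCaT it was at 51.8 CPM with siCTRL, 12.1 to 13.6 CPM with siYAP, 0.127 CPM with empty vector and 0.316 to 0.994 CPM with YAP5SA, and in A431 at 31.0, 15.8 to 18.8, 2.43 and 1.12 to 1.35 CPM in the same order. The fibroblast marker DCN was at 11.3 to 14.2 CPM in the HaCaT siRNA libraries and at 0 to 0.0765 CPM in those with a vector. In A431 DCN did not exceed 0.441 CPM. Their part in the results was not tested. In bulk RNA of this kind, fewer cells of a type and less RNA per cell cannot be told apart.

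The members were not equally abundant. On the scale of median CPM per kilobase of transcript over the 8 libraries of a line, A431 carried most HES1 (27.7), followed by NOTCH2 (20.8), JAG1 (19.9), NRARP (11.1), DLL1 (4.11), JAG2 (3.70), NOTCH1 (3.07), NOTCH3 (2.29) and HEY1 (0.114). Neighbours in this order overlapped between NOTCH2 and JAG1 and from DLL1 down to NOTCH3, whereas HES1, NRARP and HEY1 each stood clear of their neighbours. JAG1 reached 35.0 in A431 and so overlapped HES1, which ran from 24.6 to 36.0. In HaCaT the order was JAG1 (50.6), HES1 (46.9), NOTCH2 (24.6), JAG2 (7.28), NRARP (5.88), NOTCH1 (4.14), DLL1 (1.52), HEY1 (1.39) and NOTCH3 (0.596), and each neighbouring pair overlapped except NOTCH2 and JAG2. In both lines NOTCH2 was thus the most abundant receptor and JAG1 the most abundant ligand on this per-length scale. NOTCH2 counts were in part fractional and the table also lists NOTCH2NL, a near-identical copy, so reads could be split between them and the NOTCH2 level is uncertain.

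**Figure D1:**
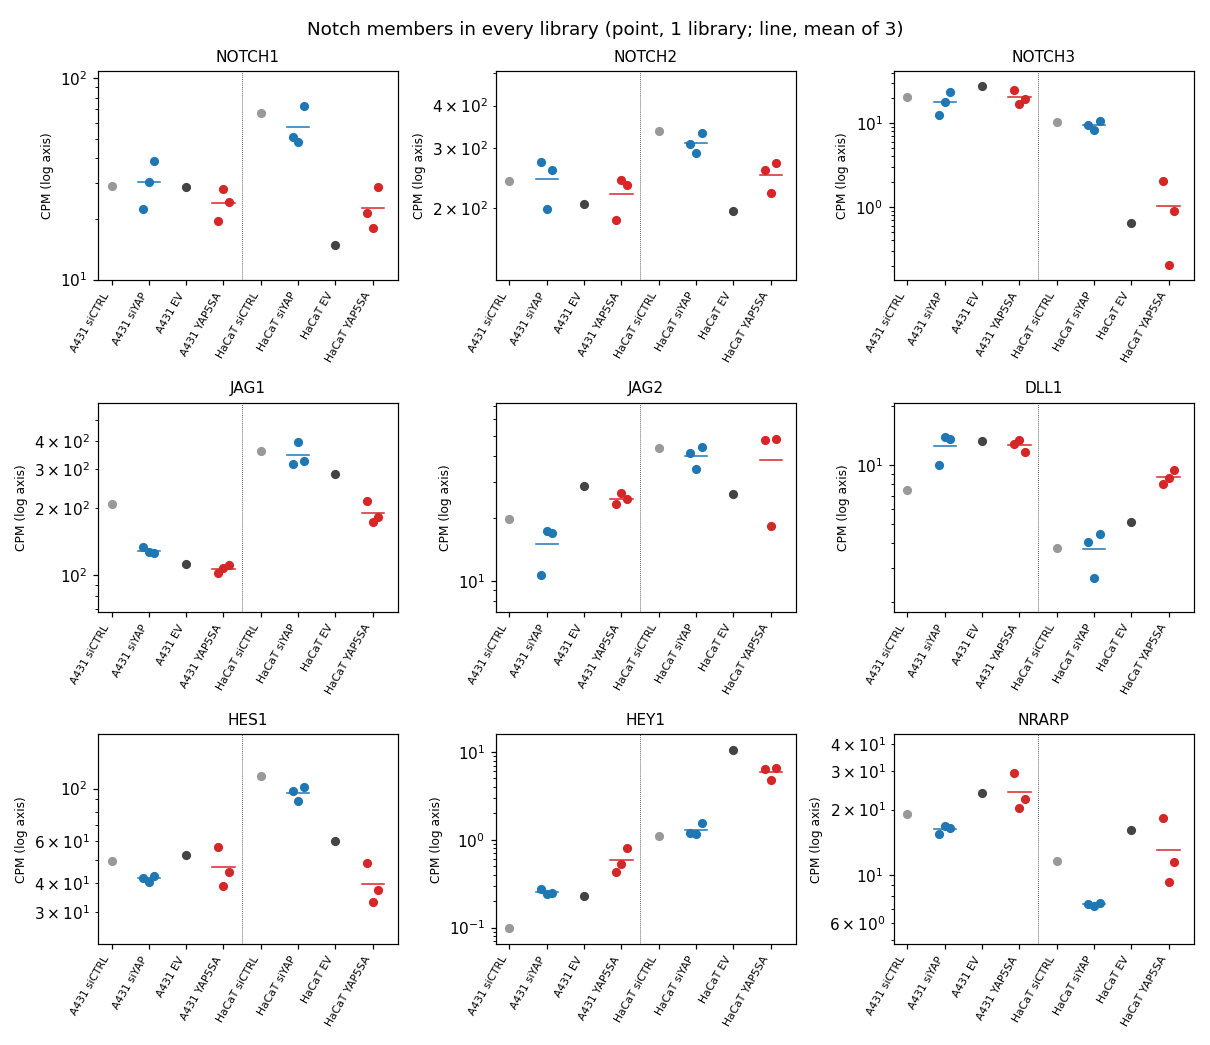
Level of each of the 9 genes in every library, in CPM on a log axis, by line and treatment, with 1 point for each library, a bar at the mean of each group of 3 and EV for empty vector. JAG1 with siCTRL in A431 (208 CPM) lies above the other 7 A431 libraries, and NOTCH3 and HEY1 in HaCaT differ between the libraries with and without a vector.

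The first question was what loss of YAP did to these genes. In A431, JAG1 was the only one of the 9 that passed the test with siYAP, and it fell. In HaCaT none passed. A gene was called where edgeR's quasi-likelihood test gave a Benjamini-Hochberg adjusted p below 0.05 over the 14673 tested genes and its mean log2 CPM was above 1. The controls are single libraries, so a lone control was assumed to vary like the triplicates of the other groups. P-values measure the spread between these libraries, and an exact permutation of 3 libraries against 1 could not go below p = 0.25.

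JAG1, a ligand that presents to all the receptors, was at 208 CPM with siCTRL in A431 and at 133, 127 and 125 CPM in the 3 siYAP libraries. All 3 siYAP libraries were below the control, with a log2 difference of -0.70 (SE 0.15, edgeR adjusted p = 0.0178). The A431 empty vector library, with YAP intact, was at 112 CPM and the 3 YAP5SA libraries were at 102, 107 and 111 CPM. The siCTRL library therefore stood above all other A431 libraries, and siYAP lay above the other control. With siCTRL and empty vector pooled as 2 controls the difference was -0.32 and the call was lost (edgeR adjusted p = 0.524). It was also lost without A431 siYAP replicate 3 (-0.68, edgeR adjusted p = 0.0602). The call was 1 of 9, beside 5.6% of all tested genes.

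In HaCaT, JAG1 was at 362 CPM with siCTRL and at 317, 398 and 326 CPM with siYAP. The control lay within the siYAP range, and the log2 difference was -0.06 (SE 0.15, edgeR adjusted p = 0.879). None of the 9 genes was called by edgeR in HaCaT, where 5.67% of all genes were, and none had an unadjusted p under 0.05. DESeq2 also called 0. Over both lines JAG1 was at -0.38 (SE 0.11, edgeR adjusted p = 0.0352) and was again the only call, 1 of 9 beside 13% of all genes. That call was lost with both controls together (-0.11, edgeR adjusted p = 0.639), without the count filter, and on leaving out A431 siYAP replicate 2 or 3 or HaCaT siYAP replicate 1 or 3, when the adjusted p lay between 0.0614 and 0.0715. The JAG1 effect in HaCaT minus that in A431 was 0.64 (SE 0.22, edgeR adjusted p = 0.279), so a difference between the lines was not shown. None of the 9 genes passed this test of the difference, against 0.17% of all genes, and JAG1 alone had an unadjusted p under 0.05. DESeq2 called 0.

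DLL1, a Delta-like ligand, moved the other way from JAG1 in A431 without passing the test. It was at 7.44 CPM with siCTRL and at 10.0, 13.9 and 13.6 CPM with siYAP, a log2 difference of 0.75 (SE 0.29, edgeR adjusted p = 0.154). As for JAG1, the control stood apart: DLL1 was at 13.2 CPM with empty vector and at 12.9, 13.5 and 11.7 CPM with YAP5SA. In HaCaT it was at 3.77 CPM with siCTRL and at 4.06, 2.67 and 4.46 CPM with siYAP, so the control lay within the siYAP range.

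The targets were slightly lower with siYAP where they were abundant, none beyond the test. HES1, a basic helix-loop-helix repressor, was at 49.5 CPM with siCTRL against 42.0, 40.3 and 42.9 CPM with siYAP in A431. In HaCaT it was at 113 CPM with siCTRL against 98.0, 88.3 and 102 CPM with siYAP. It was thus below the control in all 6 siYAP libraries, with a log2 difference over both lines of -0.24 (SE 0.15, edgeR adjusted p = 0.324). The HaCaT empty vector library, at 59.9 CPM, was below every siYAP library of that line, and with both controls together the HaCaT difference changed sign to 0.15 (edgeR adjusted p = 0.659). NRARP, a feedback inhibitor that acts on the Notch intracellular domain, was at 11.6 CPM with siCTRL in HaCaT and at 7.39, 7.24 and 7.47 CPM with siYAP. All 3 siYAP libraries were lower and close to one another, with a log2 difference of -0.65 (SE 0.31, edgeR adjusted p = 0.254). With both controls together this became -0.91 and passed (edgeR adjusted p = 0.0254). In A431 NRARP was at 19.04 CPM with siCTRL against 15.5, 16.8 and 16.4 CPM with siYAP, again below the control in 3 of 3.

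HEY1, a second helix-loop-helix target, was near the detection limit in A431. The siCTRL library held 2 counts and the siYAP libraries 25 in all, a ratio of 2.64 with a 95% counting interval of 0.659 to 23. In HaCaT it was at 1.09 CPM with siCTRL and at 1.1998, 1.17 and 1.55 CPM with siYAP, a log2 difference of 0.26 (SE 0.43, edgeR adjusted p = 0.794). The HaCaT empty vector library was at 10.6 CPM, and with both controls together the difference changed sign to -2.17 and passed (edgeR adjusted p = 0.0236). HEY1 was below 1 CPM in all 8 A431 libraries and passed the level rule through the HaCaT libraries alone, mainly those with a vector.

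Among the receptors, siYAP libraries lay on both sides of their control or close to it. NOTCH1 in A431 was at 29.2 CPM with siCTRL against 22.4, 30.7 and 38.6 CPM with siYAP, and in HaCaT at 67.3 CPM against 51.1, 48.1 and 72.5 CPM. NOTCH2 was at 240 CPM against 272, 199 and 259 CPM in A431, and at 337 CPM against 308, 290 and 333 CPM in HaCaT. NOTCH3 was at 20.3 CPM against 12.5, 18.1 and 23.4 CPM in A431, and at 10.3 CPM against 9.44, 8.31 and 10.7 CPM in HaCaT. The control fell inside the siYAP range in each case but NOTCH2 in HaCaT, where all 3 siYAP libraries were below it. The ligand JAG2 was below its control in all 3 A431 siYAP libraries (10.6, 17.4 and 17.0 against 19.8 CPM) and spanned it in HaCaT (41.2, 34.7 and 44.2 against 43.8 CPM). The uncalled log2 differences in A431 ran from -0.41 for JAG2 upwards, and in HaCaT from -0.65 for NRARP to 0.26 for HEY1. The median log2 difference of the 9 genes was -0.18 in A431 and -0.12 in HaCaT, beside 0.03 over all tested genes in each line.

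**Figure D2:**
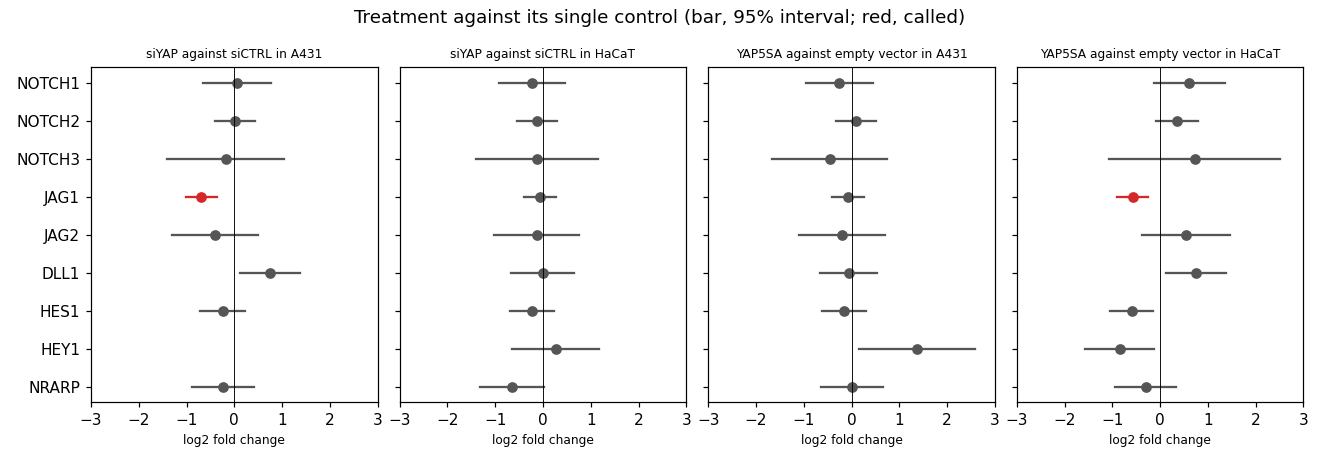
Fitted log2 difference of each gene from its own control, with 95% intervals, with siYAP and with YAP5SA, by line. Red points are called. HEY1 with siYAP in A431 is left out because its control held 2 counts, and JAG1 is called with siYAP in A431 (-0.70) and with YAP5SA in HaCaT (-0.57).

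Gain of YAP was measured against empty vector. In A431 none of the 9 genes was called with YAP5SA, and in HaCaT JAG1 alone was, again lower. For A431, edgeR called 0 of all tested genes (0%), while 828 had an unadjusted p under 0.05, HEY1 being the only one among the 9. DESeq2 called 3 genes in all and 0 of the 9, and edgeR without the count filter called 2 genes. Without A431 YAP5SA replicate 1, 87 genes in all were called, none of them among the 9.

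JAG1 in HaCaT was at 284 CPM with empty vector and at 216, 173 and 183 CPM with YAP5SA. The 3 YAP5SA libraries lay below the empty vector library and below the 4 siRNA libraries of the line, which ran from 317 to 398 CPM. The log2 difference from empty vector was -0.57 (SE 0.15, edgeR adjusted p = 0.0254), 1 call of 9 beside 13.6% of all genes. It was lost without HaCaT YAP5SA replicate 3 (-0.54, edgeR adjusted p = 0.0626) and when HaCaT was fitted alone (-0.56, edgeR adjusted p = 0.0906). With both controls together it was -0.76 and stayed called (edgeR adjusted p = 0.0317). In A431 the same comparison gave -0.07 (SE 0.15, edgeR adjusted p = 0.947). JAG1 was thus called lower with siYAP in one line and with YAP5SA in the other.

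The other genes nearest to the threshold with YAP5SA were also in HaCaT. HES1 was at 59.9 CPM with empty vector and at 48.6, 33.2 and 37.4 CPM with YAP5SA, lower in 3 of 3 (log2 difference -0.59, SE 0.21, edgeR adjusted p = 0.0716). HEY1 was at 10.6 CPM with empty vector and at 6.32, 4.82 and 6.50 CPM with YAP5SA, also lower in 3 of 3 (-0.84, SE 0.34, edgeR adjusted p = 0.104). DLL1 was at 5.16 CPM with empty vector and at 7.99, 8.61 and 9.48 CPM with YAP5SA, higher in 3 of 3 (0.75, SE 0.29, edgeR adjusted p = 0.0961). None of these 3 groups overlapped its control, and none passed the test. HES1 was called lower without HaCaT YAP5SA replicate 1 (-0.76, edgeR adjusted p = 0.0133) and with both controls together (-1.12, edgeR adjusted p = 0.0105).

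NOTCH1 in HaCaT was at 14.9 CPM with empty vector and at 21.4, 17.99 and 28.9 CPM with YAP5SA. NOTCH2 was at 196 CPM against 259, 221 and 271 CPM, so both receptors were higher in 3 of 3 YAP5SA libraries without being called. JAG2 was at 26.3 CPM against 48.0, 18.3 and 48.3 CPM, with replicate 2 alone below the control. It was among the calls once that replicate was left out. NRARP was at 16.1 CPM against 18.3, 9.33 and 11.5 CPM, which spanned the control.

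In A431 with YAP5SA, NOTCH1 was at 28.8 CPM with empty vector against 19.6, 28.3 and 24.4 CPM, and NOTCH3 at 28.0 CPM against 25.1, 16.9 and 19.3 CPM. JAG2 was at 28.6 CPM against 23.4, 26.6 and 24.7 CPM, so these 3 genes were lower in 3 of 3 libraries by less than the test required. HES1 (52.3 CPM against 56.7, 38.8 and 44.4 CPM), NRARP (24.0 CPM against 29.6, 20.3 and 22.5 CPM) and NOTCH2 (206 CPM against 184, 242 and 234 CPM) spanned their control. HEY1 was higher in 3 of 3 (0.229 CPM against 0.430, 0.531 and 0.806 CPM, from 5, 10, 13 and 29 counts), with a log2 difference of 1.37 (SE 0.56, edgeR adjusted p = 0.803). Over both lines edgeR called 0 of the 9, beside 2.04% of all genes, with JAG1 (-0.32, SE 0.11, adjusted p = 0.121) and HES1 (-0.38, SE 0.15, adjusted p = 0.17) at an unadjusted p under 0.05. DESeq2 called 0. The median log2 difference of the 9 genes was -0.07 in A431 and 0.35 in HaCaT, beside 0.02 and 0.01 over all genes.

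Whether the YAP5SA effect differed between the lines was tested directly. The HEY1 effect in HaCaT minus that in A431 was -2.22 (SE 0.65, edgeR adjusted p = 0.0936), since HEY1 was below empty vector in HaCaT and above it in A431. For JAG1 the difference was -0.51 (SE 0.22, edgeR adjusted p = 0.198). None of the 9 was called by edgeR, beside 0.0886% of all genes, and these 2 had an unadjusted p under 0.05. DESeq2 called 0 of the 9. That background of 13 genes was not stable: DESeq2 called 883 genes, and edgeR called 873 without A431 YAP5SA replicate 1, 1 without replicate 2 or replicate 3 of that group, 610 without HaCaT YAP5SA replicate 1 and 497 without HaCaT YAP5SA replicate 2. Without A431 YAP5SA replicate 1 the HEY1 difference was -2.39 and passed (edgeR adjusted p = 0.0467). HEY1 met the level rule through HaCaT alone, so this value is a description.

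The lines were compared next. Over the 8 libraries of each line, NOTCH3 was at 12.5 to 28.0 CPM in A431 and at 0.201 to 10.7 CPM in HaCaT, and HEY1 was at 0.0979 to 0.806 CPM in A431 and at 1.09 to 10.6 CPM in HaCaT. The ranges of these 2 genes over all libraries of a line did not overlap, whereas those of the other 7 did. Within each single treatment JAG1, DLL1 and NRARP did not overlap between the lines either. How many of all genes lacked overlap was not counted, so no trait of these genes is read from it. The ratio of medians was 3.83 for NOTCH3, higher in A431, and 12.2 for HEY1, higher in HaCaT.

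Tests of the lines used the triplicates, where an exact permutation of 3 against 3 could not go below p = 0.1. Under siYAP, 8 of the 9 genes differed between HaCaT and A431, beside 58.5% of all genes. HaCaT was higher for HEY1 (log2 difference 2.33, SE 0.33), JAG1 (1.43, SE 0.11), JAG2 (1.42, SE 0.30), HES1 (1.202, SE 0.15), NOTCH1 (0.91, SE 0.23) and NOTCH2 (0.35, SE 0.14). A431 was higher for DLL1 (-1.73, SE 0.20) and NRARP (-1.14, SE 0.22). Their edgeR adjusted p-values ran from 1.19e-07 for JAG1 to 0.0381 for NOTCH2, and NOTCH3 at -0.91 was not called (edgeR adjusted p = 0.0658). HEY1 had passed the level rule through HaCaT alone, so its difference between the lines is a description, and the count without it was 7 of the other 8 genes. The 2 Jagged ligands were higher in HaCaT and the Delta-like ligand in A431. NOTCH2 was the least secure of the 8, and its call was lost without the count filter, as it was without A431 siYAP replicate 2 or HaCaT siYAP replicate 1 or 3.

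Under YAP5SA, 5 of the 9 genes differed between the lines, beside 50.2% of all genes. The values are from the fit without pairs, and with a replicate block the count of members was again 5. HEY1 (3.28, SE 0.29) and JAG1 (0.84, SE 0.11) were higher in HaCaT, while NOTCH3 (-4.27, SE 0.49), NRARP (-0.88, SE 0.21) and DLL1 (-0.54, SE 0.19) were higher in A431. The edgeR adjusted p-values ran from 8.2e-07 for HEY1 to 0.0289 for DLL1. NOTCH1 (-0.08, SE 0.23), NOTCH2 (0.19, SE 0.14), JAG2 (0.62, SE 0.29) and HES1 (-0.23, SE 0.15) were not called. The DLL1 call was lost on leaving out replicate 1 or replicate 2 of YAP5SA in either line (log2 difference -0.48 to -0.53, edgeR adjusted p = 0.0553 to 0.0817). JAG2 was called once HaCaT YAP5SA replicate 2 was left out (0.95, edgeR adjusted p = 0.000716), as was HES1 without HaCaT YAP5SA replicate 1 (-0.40, edgeR adjusted p = 0.0288). The HEY1 value is again a description only. JAG1, DLL1 and NRARP were thus called in the same direction under both treatments.

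**Figure D3:**
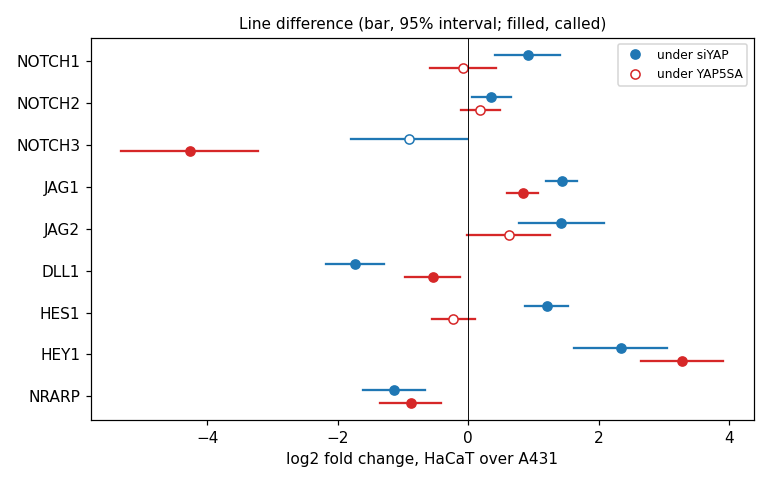
Fitted log2 difference between HaCaT and A431 for each gene, with 95% intervals, under siYAP and under YAP5SA, with 3 libraries on each side. Filled points are called. NOTCH3 lies at -0.91 under siYAP and at -4.27 under YAP5SA, and HEY1 is above 2 under both.

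The last comparison was of YAP5SA with siYAP within a line, the widest contrast in YAP. It also sets cultures with a vector against cultures with siRNA alone, which cannot be told apart from YAP in these groups, so each value is given with the 2 control libraries. In HaCaT 7 of the 9 genes were called, HEY1 among them, beside 60% of all genes. In A431 1 of 9 was, HEY1, beside 34.6% of all genes. HEY1 passed the level rule through HaCaT alone, so its place in both counts is a description. None of the other 8 genes was called in A431.

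In HaCaT, NOTCH3 was at 2.02, 0.201 and 0.892 CPM with YAP5SA (79, 7 and 35 counts) and at 8.31 to 10.7 CPM with siYAP, a log2 difference of -3.17 (SE 0.48, edgeR adjusted p = 5.83e-05). The control libraries differed as much: NOTCH3 was at 0.637 CPM with empty vector (20 counts) and at 10.3 CPM with siCTRL (189 counts), 16.2-fold lower with the vector. NOTCH1 was lower with YAP5SA by -1.33 (SE 0.23, edgeR adjusted p = 0.00021) and 4.52-fold lower with empty vector than with siCTRL. HEY1 was higher with YAP5SA by 2.16 (SE 0.27, edgeR adjusted p = 1.2e-05) and 9.68-fold higher with empty vector than with siCTRL. It passed the level rule mainly through the HaCaT vector libraries, with 1.09 to 1.55 CPM in the siRNA libraries of that line. The HEY1 difference here is therefore a description. For 7 of the 9 genes, all but JAG2 and NRARP, the HaCaT vector libraries, YAP5SA and empty vector alike, lay on one side and the siRNA libraries on the other without overlap. How many of all genes split in this way was not counted. Since 60% of all genes were called between YAP5SA and siYAP in HaCaT, the split is not read as particular to the 9.

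HES1 in HaCaT was lower with YAP5SA than with siYAP by -1.27 (SE 0.15, edgeR adjusted p = 8.2e-06), beside a 1.88-fold lower level in the empty vector than in the siCTRL library. JAG1 was lower by -0.86 (SE 0.11, edgeR adjusted p = 1.32e-05), with empty vector 1.28-fold below siCTRL. DLL1 was higher by 1.21 (SE 0.20, edgeR adjusted p = 0.00015), with empty vector 1.37-fold above siCTRL. NRARP was higher by 0.82 (SE 0.22, edgeR adjusted p = 0.00472), with empty vector 1.39-fold above siCTRL. NOTCH2 (-0.31, edgeR adjusted p = 0.0601) and JAG2 (-0.07, edgeR adjusted p = 0.846) were not called.

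When the difference between arms was corrected for the difference between their controls, edgeR called none of the 9 genes in either line. In that setting it called 224 of all 14673 tested genes in A431 and 1321 in HaCaT. The count of 0 is therefore not read as particular to the 9. In HaCaT the sign turned for NOTCH1 (0.85), NOTCH2 (0.47), NOTCH3 (0.84), JAG2 (0.67) and HEY1 (-1.11). For JAG1 it stayed at -0.51, for HES1 at -0.36, for DLL1 at 0.76 and for NRARP at 0.35. The HaCaT empty vector and siCTRL libraries differed by over 2-fold in 3900 of 12237 genes (31.9%), and 3 of the 9 genes were among these, NOTCH1, NOTCH3 and HEY1. In A431 it was 655 genes (5.35%) and none of the 9, on the scale of log2 CPM with 0.5 added. With a single library on each side, these ratios were given as values, and the part of the vector was not tested.

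In A431, HEY1 was the only call between YAP5SA and siYAP, at 0.430 to 0.806 CPM against 0.241 to 0.273 CPM (log2 difference 1.21, SE 0.34, edgeR adjusted p = 0.0146). HEY1 was below 1 CPM in every A431 library and passed the level rule through HaCaT alone, so this call is a description. It rested on 10, 13 and 29 counts against 13, 7 and 5, and was lost without A431 YAP5SA replicate 3 (0.90, edgeR adjusted p = 0.102). NRARP (0.57, SE 0.21, edgeR adjusted p = 0.0523), JAG2 (0.74, SE 0.30, edgeR adjusted p = 0.0687) and JAG1 (-0.27, SE 0.11, edgeR adjusted p = 0.0718) were next. For JAG1 and JAG2 the 3 YAP5SA libraries did not overlap the 3 siYAP libraries, nor for NRARP, and DESeq2 called all 3 of these along with HEY1. JAG1 against own controls was at 0.63, the opposite sign, and NOTCH2, NOTCH3 and DLL1 also changed sign in that setting, none of them called.

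**Figure D4:**
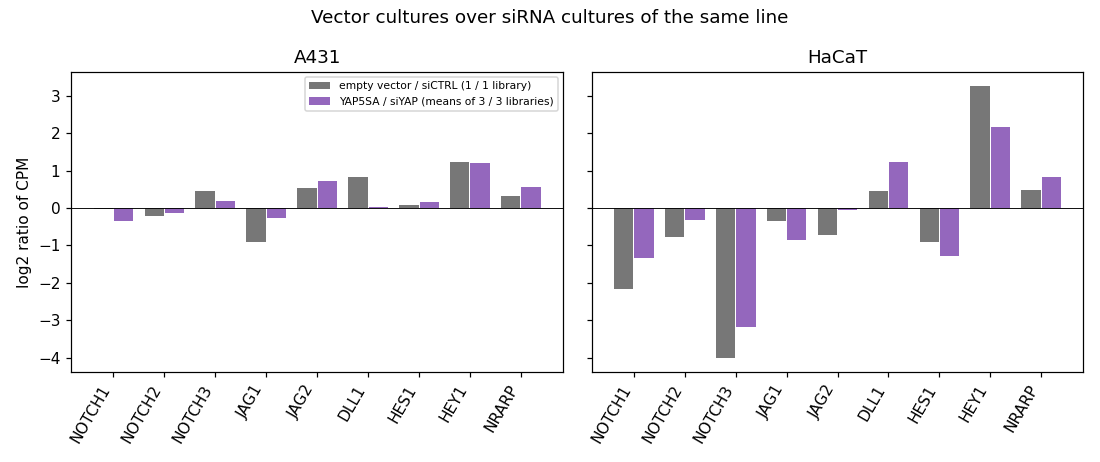
Bars from 0 of the log2 ratio of CPM for each gene by line, in grey for the single empty vector library over the single siCTRL library and in purple for the mean of 3 YAP5SA over the mean of 3 siYAP libraries. In HaCaT both ratios have the same sign for each of the 9 genes, with NOTCH3 16.2-fold lower and HEY1 9.68-fold higher between the controls, and the grey HEY1 bar in A431 rests on 5 and 2 counts.

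The rest of the pathway was described from a list of 48 further genes that modify, cleave, degrade or work with the receptors and ligands. Of these 41 were tested and 36 passed the level rule. With siYAP, 6 fell and none rose in A431, 3 fell and 2 rose in HaCaT, and over both lines 6 fell and 4 rose. That was 6, 5 and 10 of the 41 tested, beside 5.6%, 5.67% and 13% of all genes. The 6 in A431 included LFNG, which was below 1 CPM in every A431 library and passed the level rule through HaCaT alone. Its place in that count is therefore a description. The genes that fell over both lines included 3 of the receptor glycosylation and processing group, POGLUT1, ADAM17 and ADAM10, while 3 of the 4 that rose belong to the group of endocytosis and degradation factors.

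POGLUT1, which adds O-linked glucose to the receptors, was at 49.0 CPM with siCTRL against 18.7 to 26.5 CPM with siYAP in A431, and at 43.4 CPM against 21.5 to 22.1 CPM in HaCaT. The log2 differences were -1.196 (SE 0.18, edgeR adjusted p = 0.00306) and -0.99 (SE 0.18, edgeR adjusted p = 0.00729). The empty vector libraries, at 31.3 and 31.0 CPM, were below siCTRL but above each siYAP library. ADAM17, a protease that can cleave Notch, was at 135 CPM against 78.1 to 91.5 CPM in A431 (-0.67, SE 0.15, edgeR adjusted p = 0.0195). In HaCaT it was at 67.2 CPM against 38.9 to 46.2 CPM (-0.66, SE 0.15, edgeR adjusted p = 0.0191). Both genes were thus lower in all 6 siYAP libraries, without overlap with either control of the line.

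HES2, a repressor of the HES family, fell over both lines (-1.12, SE 0.21, edgeR adjusted p = 0.00445) and in A431, from 23.5 CPM to between 8.76 and 10.8 CPM. Further falls in A431 included those of KDM5A, a histone demethylase of the corepressor complex (-0.49), and of LFNG, a glycosyltransferase that held 8 counts with siCTRL and 4 in all with siYAP. The LFNG ratio was 0.106 with a 95% counting interval of 0.0233 to 0.394. In HaCaT the third gene that fell was DLK2, a non-canonical ligand (-1.01, SE 0.26, edgeR adjusted p = 0.0398). It was at 20.5 CPM with siCTRL and 9.28 to 10.8 CPM with siYAP, but the empty vector library, at 4.52 CPM, was below every siYAP library. In A431 the DLK2 levels with siYAP, 8.07 to 12.2 CPM, spanned the 11.7 CPM of siCTRL. The rises in HaCaT were of NUMBL, an endocytic adaptor that antagonises Notch (1.39, SE 0.34, edgeR adjusted p = 0.0301), and of DTX3, a ubiquitin ligase of the Deltex family (1.21, SE 0.30, edgeR adjusted p = 0.0338). Over both lines the largest rises were of APH1B, a gamma-secretase subunit (1.42, edgeR adjusted p = 0.0146), and NUMBL (1.24, edgeR adjusted p = 0.00499).

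A pair of 7-base sites, TTCTTAA and CTTCTTA, was then counted in 3' UTRs, since earlier results of these data had tied these letters to genes lower with siYAP. The counts are therefore a description of the same libraries and no independent support for that tie. UTR lengths were not matched, and that of ADAM10 had 8740 bases. None of the 9 members held a site (UTRs of 499 to 3753 bases, GENCODE v29). Of the 6 further genes called lower over both lines, 4 did (POGLUT1, ADAM17, ADAM10 and KDM5A), as did 0 of the 4 called higher and 26.6% of 12101 tested genes with a UTR of at least 50 bases. In all 8 of the 48 genes held a site, and of the other 4 DLK1 was not tested while MIB1 (0.38, edgeR adjusted p = 0.132), MAML1 (-0.22, edgeR adjusted p = 0.271) and KAT2B (-0.16, edgeR adjusted p = 0.687) were not called over both lines. The windows below, from GRCh38, hold the joint 8-base site in capitals, at chr12:283872-283901 on the - strand and chr3:119493113-119493142 on the + strand, and its part in the falls was not tested.
KDM5A: tgttctctgttCTTCTTAAggtattaggta
POGLUT1: ttcatgccctaCTTCTTAAtgcctctctaa

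**Figure D5:**
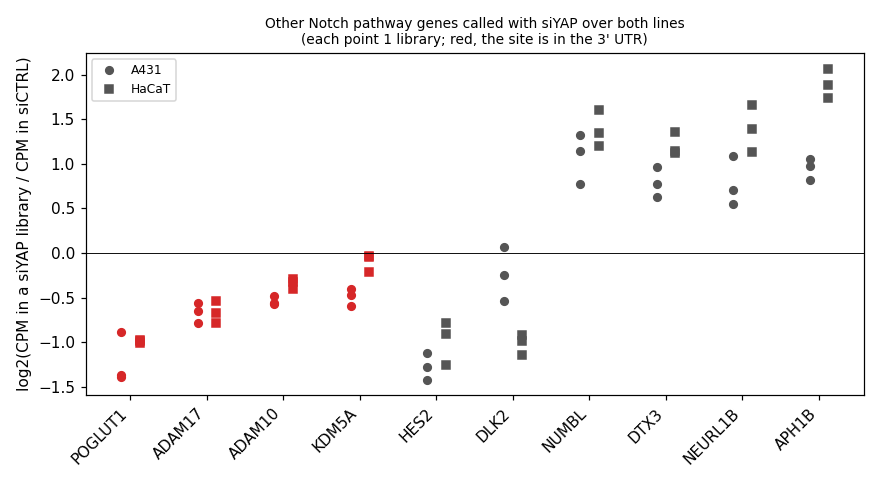
Log2 ratio of CPM in each siYAP library to CPM in the siCTRL library of its line, for the 10 further pathway genes called over both lines, with circles for A431, squares for HaCaT and red for genes that hold a TTCTTAA or CTTCTTA site in the 3' UTR. POGLUT1, ADAM17, ADAM10, KDM5A and HES2 lie below 0 in all 6 libraries, and NUMBL, DTX3, NEURL1B and APH1B above 0 in all 6.

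With YAP5SA none of the 36 was called by edgeR in A431 or over both lines. In HaCaT 6 rose and 2 fell, 8 of the 41 tested beside 13.6% of all genes, and the largest rises were of RFNG, a Fringe glycosyltransferase (1.58, SE 0.37, edgeR adjusted p = 0.0163), and DTX2 (1.32, SE 0.34, edgeR adjusted p = 0.0245). RFNG was at 1.18 CPM with empty vector, 2.32 to 4.36 CPM with YAP5SA and 6.99 CPM with siCTRL, so the rise stayed below the siRNA control. DTX2 was at 2.7 CPM with empty vector, 6.3 to 7.3 CPM with YAP5SA, 8.1 CPM with siCTRL and 5.5 to 9.0 CPM with siYAP. Its YAP5SA libraries were thus also below the siRNA control, and within the siYAP range. The falls were of HES2 (-0.95, SE 0.28, edgeR adjusted p = 0.0402) and KDM5A (-0.41, SE 0.13, edgeR adjusted p = 0.0454). HES2 was at 61.9 CPM with empty vector and 21.3 to 43.1 CPM with YAP5SA, and at 18.3 CPM with siCTRL. RBPJ itself rose in HaCaT, from 29.98 CPM to between 38.001 and 52.1 CPM (0.59, SE 0.16, edgeR adjusted p = 0.03). It was at 44.7 CPM with siCTRL and at 49.7 to 53.2 CPM with siYAP, so the YAP5SA libraries spanned the siRNA control.

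Between the lines, 10 of these genes were higher in HaCaT and 12 in A431 under siYAP, and 8 and 17 under YAP5SA. These are 22 and 25 of the 41 tested, near the 58.5% and above the 50.2% of all genes. LFNG was at 10.04 to 12.6 CPM with siYAP and 3.99 to 5.07 CPM with YAP5SA in HaCaT, against 4 counts in all with siYAP and 5, 9 and 12 counts with YAP5SA in A431. It passed the level rule through HaCaT alone, so its fitted values (7.96 and 3.84) are a description and depend on the prior count. MAML3, a co-activator of the Mastermind family, had the largest difference towards A431 among the called genes of this list under both treatments (-2.46 and -3.70). DTX1, below the level rule, held 24 to 42 counts with siYAP and 11 to 26 with YAP5SA in A431, and 0 in every HaCaT library. MAML2 (2.47) and APH1B (-1.98) were next under siYAP, and FURIN (0.79) and APH1B (-2.73) under YAP5SA. In HaCaT MAML3 was at 0.127 to 1.78 CPM and APH1B at 0.430 to 2.75 CPM. MAML3 and APH1B passed the level rule mainly through A431, so their differences between the lines are a description too. Between YAP5SA and siYAP, 12 were higher and 9 lower in A431 and 7 higher and 18 lower in HaCaT, 21 and 25 of the 41 tested beside 34.6% and 60% of all genes. In A431 the extremes were LFNG (2.77, on the same low counts) and HES2 (2.17) among rises, and NEURL1B (-0.95) and MAML2 (-0.86) among falls. HES2 was also higher (1.78) and DTX4 lower (-2.16) in HaCaT. In HaCaT the extremes were PSEN2 (2.66), and MAML2 (-2.56), and these also differed between the 2 control libraries, by 5.48-fold higher and 5.75-fold lower with the vector.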

How the data were processed

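Total RNA from 16 cultures was sequenced, and the deposited table holds estimated counts per gene that the authors made with RSEM (given as 1.2.11 in the submitters' processing notes, with build hg19), of which 17.7% are not whole numbers. Read alignment settings beyond this were not used here. The counts were rounded and fitted in edgeR 4.0.16 (R 4.3.3) by the quasi-likelihood method, with TMM scaling (factors 0.914 to 1.07), 14673 of 26229 genes kept for a mean count above 10, a prior count of 0.125 and 8 groups (line by treatment) over all 16 libraries, which left 8 residual degrees of freedom. A gene was called at a Benjamini-Hochberg adjusted p under 0.05 and a mean log2 CPM above 1. Values over both lines are the mean of the contrasts of the lines. Groups came from the labels, and every library was assigned. The labels state that controls were not in triplicate, and nothing in them ties the replicates to separate days or thaws. Of 18 correlations of the deviations of same-numbered replicates, from -0.022 to 0.28, 5 were over 0.1. All 3 between the lines under YAP5SA were (0.28, 0.116 and 0.101), and in no other pair of groups were all 3 over 0.1. Replicate numbers may therefore pair the libraries of the lines under YAP5SA. The main fit had no term for pairs, so its estimates there are unpaired, and a replicate block was used only as an alternative.

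The members, the list of 48 further pathway genes and the markers were chosen with earlier results of these data known. Named were all 9 members, YAP1, and from the 48 genes those called with a treatment, or the 2 largest rises and 2 largest falls where more than 4 were called, as in the comparisons of lines and of YAP5SA with siYAP. Genes named beyond this rule (ADAM17, ADAM10, RBPJ and, for the A431 siYAP fall, POGLUT1 and KDM5A) were chosen after their values were seen, and 1 further call is not reported here. Per-length levels used the GENCODE v29 transcript with the longest coding sequence. Alternatives were RLE size factors, no filter, over 10 counts in every library, DESeq2 1.42.0, leaving out each replicate, both controls together, each line alone, each arm against its own control and a replicate block. The scripts were tested on simulated data. Figures and sequence searches used Python 3.11.15. Counting intervals and limits cover counting error only.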

Additional observations from a re-analysis of the deposited data

Results flagged for a closer look

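The siYAP effect on LFNG, a glycosyltransferase that modifies Notch receptors, was 4.19 higher in HaCaT than in A431 as fitted on the log2 scale (edgeR quasi-likelihood interaction, SE 0.66, Benjamini-Hochberg adjusted p = 0.0328), and no difference between the lines is read from it. In A431 LFNG held 8 counts with siCTRL and 4 in all with siYAP, and in HaCaT it was at 5.41 CPM with siCTRL and at 10.04 to 12.6 CPM with siYAP. It passed the level rule through the HaCaT libraries alone, and the fitted A431 value depends on the prior count.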

How the results depend on the processing

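Of 610 alternative values of members whose estimates are given singly, 546 kept their direction and side of the threshold, 22 newly passed, 24 no longer passed and 18 changed sign. Of 518 further values of members not given singly, 40 changed sign, none of them called in either fit, and 2 calls changed. The cause of these changes was not tested. Without the count filter, 0 members were called with siYAP over both lines and 2 between YAP5SA and siYAP in A431, and JAG2 between YAP5SA and siYAP in HaCaT turned to 0.0026. With over 10 counts required in every library, 7 members were tested, 3 differed between the lines under YAP5SA, and DLL1 with siYAP in HaCaT turned to 0.021. DESeq2 called 4 between YAP5SA and siYAP in A431. With both controls pooled, siYAP called 0 members in A431 and 2 in HaCaT, and YAP5SA called 3 in HaCaT and 2 over both lines. Under that setting JAG1 (0.10), HES1 (0.15) and HEY1 (-2.17) with siYAP in HaCaT and DLL1 (0.29) with YAP5SA in A431 changed sign, as did, uncalled, NOTCH1, NOTCH2, NOTCH3 and JAG2 with siYAP in HaCaT, NOTCH1, NOTCH2 and NOTCH3 with YAP5SA in HaCaT, and NOTCH2 and JAG2 with YAP5SA in A431. Fitting each line alone left 0 called with YAP5SA in HaCaT. Against own controls, YAP5SA and siYAP differed in 0 members in A431 and 0 in HaCaT, beside 224 and 1321 of all tested genes. JAG1 in A431 was then at 0.63, and in HaCaT NOTCH1 was at 0.85, NOTCH2 at 0.47, NOTCH3 at 0.84, JAG2 at 0.67 and HEY1 at -1.11. Outside the lines under YAP5SA, samples shared only a number. With a replicate block on the 12 treated libraries 2 members were called between YAP5SA and siYAP in A431, against 1 in those libraries without it, and the other counts stayed at 8 and 5 between the lines under siYAP and YAP5SA and 7 between YAP5SA and siYAP in HaCaT. Leaving out each replicate in turn gave 0 to 1 members called with siYAP in A431 and 0 to 1 over both lines, 0 to 2 with YAP5SA in HaCaT and 0 to 2 over both lines, 0 to 1 for the YAP5SA difference between lines, and 0 to 2 between YAP5SA and siYAP in A431. It also moved NOTCH1 between the lines under YAP5SA from -0.29 to 0.063, JAG1 with siYAP in HaCaT from -0.17 to 0.0022, DLL1 there from -0.15 to 0.18, and JAG2 between YAP5SA and siYAP in HaCaT from -0.27 to 0.27. Over all genes, the 821 calls with siYAP in A431 became 198 with both controls pooled and 1365 with DESeq2, the 832 in HaCaT became 2941 and 1316 and 349 with HaCaT alone, and the 1904 over both lines became 2933 with both controls pooled. With YAP5SA the 2001 in HaCaT became 653 with HaCaT alone, and the 300 over both lines became 1024 with DESeq2. Depth limits HEY1 in A431, with at most 29 counts in a library.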

Other observations

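Over the 16 libraries, with each line centred on its mean, some genes followed single members closely on the scale of log2 CPM with 0.5 added. These correlations are descriptions across libraries that share a line and a transfection, and have no test. NOTCH3 was most like MPND and SSH3 (Pearson r = 0.98 for each), HES1 like IKZF2 (0.98) and FBXO34 (0.97), NOTCH1 like MIRLET7BHG (0.97) and CBX6 (0.97) and HEY1 like RSRC1 (0.97) and CCSAP (0.97). JAG1 was most like APP (0.96), the amyloid precursor protein, and ATRX (0.95), a chromatin remodeller. For DLL1 the closest were SSR4 (0.94) and SPHK1 (0.92), for NRARP NUDCD3 (0.94) and DHRS7 (0.94), for JAG2 PPP1R16A (0.93) and PACSIN3 (0.93), and for NOTCH2 EP400 (0.91) and SPDYE5 (0.91). Among the members themselves, NOTCH3 and HES1 moved together (r = 0.92), JAG1 and DLL1 oppositely (r = -0.94) and NOTCH1 and HEY1 oppositely (r = -0.87).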
